A study of Homo sapiens with 4 samples.

Results

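The human mitochondrial genome carries 37 genes whose symbols start with MT-, and all 37 were found among the 64252 genes of a deposited count table. They comprise 13 protein-coding genes, 2 ribosomal RNA (rRNA) genes and 22 transfer RNA (tRNA) genes. They were taken by symbol as a complete set, and the set was chosen by its measured values: its share of all counts and its dBET1 against DMSO differences in these same 4 libraries. Those values are therefore given as a description, without a test.

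The RNA came from cells labelled NB4, an acute promyelocytic leukemia line, after 24 h with 8 μM dBET1 (2 libraries) or with the same volume of its solvent DMSO (2 libraries). dBET1 is a small molecule that joins a ligand of the BET bromodomain proteins to a ligand of cereblon (CRBN), the adaptor of a ubiquitin ligase, and so leads to degradation of BET proteins. The comparison asks which transcripts differ after BET protein degradation. All 4 libraries carry the label of this 1 cell line and share the 24 h time point. Nothing in the labels says that the libraries of a group came from separate cultures. Spreads and p-values therefore measure the difference between these libraries, which may be technical. The libraries held 28019956 to 34685645 counts, and 24589 to 25274 genes had a count with DMSO against 28353 to 28356 with dBET1.

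Marker genes did not match the label. ELANE and CTSG, proteases of the promyelocyte's granules, were at 0 in all 4 libraries, and with MPO, AZU1 and PRTN3 they reached 17 and 15 counts under DMSO against 55 and 25 under dBET1. The 10 erythroid markers, among them the globin genes, GATA1 and KLF1, together held 208306 and 217155 counts under DMSO against 113516 and 112698 under dBET1. The 5 B and T cell markers summed to 388 to 977 counts, most of them from CD3D. The erythroid sum thus moved with the treatment in the same libraries as the results below, and its part in them was not tested. MYC, a gene that depends on BET proteins in many blood cancers, was 455 ± 14.2 CPM (counts scaled to 1000000 per library) with DMSO and fell to 274 ± 6.30 CPM (SD, n = 2; log2 fold change -0.73, adjusted p = 0.000101).

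Mitochondrial DNA is transcribed from both strands as long RNAs that are cut into single transcripts, mostly at the tRNAs that lie between the other genes. The messenger RNAs encode core subunits of respiratory complexes I, III and IV and of ATP synthase, and the rRNAs and tRNAs serve the ribosome inside the organelle. Every other subunit, and every enzyme that copies, transcribes, cuts, modifies, translates and degrades these RNAs, is encoded in the nucleus. Mitochondrial mRNAs carry short poly(A) tails, the rRNAs very short ones, and the tRNAs a CCA end.

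The rRNA MT-RNR2 lies between the tRNA genes MT-TV and MT-TL1, and the counts of the members diverged across this stretch, so both borders are printed here (hg38, plus strand). The tRNA gene is in capitals with 20 bases on each side in lower case. In the MT-TV line, at chrM:1582-1690, the lower-case bases are the end of MT-RNR1 and the start of MT-RNR2. In the MT-TL1 line, at chrM:3210-3324, they are the end of MT-RNR2 and the start of MT-ND1 after a gap of 2 bases.
MT-TV: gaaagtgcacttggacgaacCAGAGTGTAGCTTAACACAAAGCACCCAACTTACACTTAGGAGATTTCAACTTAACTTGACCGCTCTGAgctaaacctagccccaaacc
MT-TL1: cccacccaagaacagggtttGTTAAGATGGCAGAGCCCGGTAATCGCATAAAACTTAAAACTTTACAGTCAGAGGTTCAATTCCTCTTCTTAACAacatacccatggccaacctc

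The MT- genes took a larger share of the counts after dBET1. They held 4.67% and 4.91% of all counts under DMSO, against 7.81% and 7.38% under dBET1. The 95% Wilson intervals, which cover counting error only, were narrow at this depth, from 4.661% to 4.676% for DMSO replicate 1 and from 7.802% to 7.822% for dBET1 replicate 1 for example. Both dBET1 libraries lay above both DMSO libraries, and the group means were 4.79% ± 0.173 and 7.60% ± 0.304 (SD, n = 2), a ratio of 1.59. The coding genes made up most of the set, with 4.31% and 4.60% of all counts with DMSO against 6.71% and 6.33% with dBET1, a ratio of means of 1.46. The rRNA genes went from 0.290% and 0.249% to 0.994% and 0.956%, a ratio of 3.62. The tRNA genes went from 0.0718% and 0.0638% to 0.113% and 0.101%, a ratio of 1.57. In these bulk libraries more mitochondrial RNA per cell and less nuclear RNA per cell cannot be told apart.

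**Figure D1:**
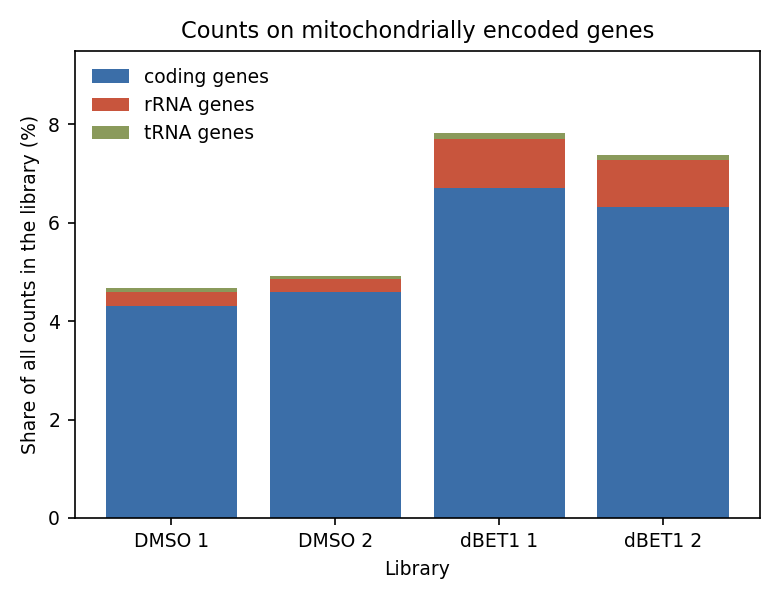
Share of all counts in each library (percent, vertical axis) that fell on mitochondrially encoded genes, stacked by coding, rRNA and tRNA genes. The DMSO bars reach 4.67% and 4.91% and the dBET1 bars 7.81% and 7.38%, and the rRNA layer grows from under 0.3% to almost 1%.

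The share is relative to all other counts, so the members were also compared on the TMM scale, which sets the bulk of the genes level between libraries. On that scale the 37 members summed to 51588 ± 2779 CPM with DMSO and 70745 ± 3094 CPM with dBET1 (SD, n = 2), a ratio of 1.37. The coding genes summed to 47959 ± 3088 and 60672 ± 2725 CPM, a ratio of 1.27. The rRNA genes summed to 2899 ± 261 and 9079 ± 287 CPM, a ratio of 3.13, and the tRNA genes to 729 ± 48.2 and 994 ± 82.5 CPM, a ratio of 1.36.

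All 37 members passed the filter on low counts. Of them, 17 were past an adjusted p of 0.05 in the direction of dBET1, where 28.0% of the 17971 genes tested were, and 3 (MT-TF, MT-RNR1 and MT-ND5) in the direction of DMSO, where 27.6% were. Because the set was selected on this contrast, nothing is read from these counts. With a log2 fold change above 1 as well, the members higher were 2 (MT-RNR2 and MT-TL1) against 16.9% of all genes, and the members lower were 0 against 8.54%. Both dBET1 libraries lay above both DMSO libraries for 23 members (41.9% of all genes) and below them for 6 (37.4% of all genes), and for 8 the libraries overlapped. The median log2 fold change was 0.31 over the members and 0.05 over all genes tested. With total counts as the only scaling, that median over all genes was 0.26, the members higher and lower were 21 and 0, and all genes higher and lower were 6703 and 3573 in place of 5038 and 4953. The median log2 fold change of the coding members was 0.20 without dBET1 replicate 1 and 0.37 without dBET1 replicate 2.

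The members just inside and just outside the fold limit were MT-TL1 at a log2 fold change of 1.04 and MT-TD at 0.96.

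On the TMM scale the rRNA genes went opposite ways. MT-RNR2 (ENSG00000210082, chrM:1671-3229), the large-subunit rRNA of the mitochondrial ribosome, drew 84510 and 64747 counts under DMSO against 267606 and 259676 under dBET1. In CPM it was 2590 and 2304 with DMSO and 8916 and 8506 with dBET1, a gap far wider than that between the libraries of either group. The log2 fold change was 1.83 (SE 0.08), the highest of the 37 members, and it ran from 1.72 to 1.89 with each library left out in turn and from 1.78 to 2.04 under the other alternatives.

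MT-RNR1 (ENSG00000211459, chrM:648-1601), the small-subunit rRNA, drew 16116 and 11547 counts under DMSO against 10966 and 11299 under dBET1. In CPM it was 494 and 411 with DMSO and 365 and 370 with dBET1. Both dBET1 libraries were below both DMSO libraries, with a log2 fold change of -0.30 (SE 0.095), which was -0.09 with total counts as the only scaling. The ratio of the rRNAs within a library does not depend on the scaling between libraries. MT-RNR2 had 5.24 and 5.61 times the counts of MT-RNR1 under DMSO, against 24.4 and 23.0 times under dBET1. Per base of gene the ratio was 3.21 and 3.43 with DMSO and 14.9 and 14.1 with dBET1, so the mean ratio was 4.37 times as high after dBET1.

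The step lay at the border between MT-TV and MT-RNR2. In the order of the genome, the log2 fold changes of the first members were -0.77 for MT-TF (tRNA for phenylalanine), -0.30 for MT-RNR1, -0.27 for MT-TV (tRNA for valine), 1.83 for MT-RNR2, 1.04 for MT-TL1 (a tRNA for leucine) and 0.62 for MT-ND1. MT-TV, upstream of MT-RNR2, was at 13.7 and 10.9 CPM with DMSO and 10.2 and 10.2 CPM with dBET1. MT-TL1, downstream, was at 56.9 and 51.1 CPM with DMSO and 113 and 110 CPM with dBET1. Per base of gene, MT-TL1 was 3.82 and 4.33 times MT-TV with DMSO and 10.2 and 9.97 times with dBET1, and these libraries did not overlap. MT-ND1, the next gene, stayed lower than MT-RNR2 in its difference: MT-RNR2 was 0.731 and 0.634 times MT-ND1 per base with DMSO and 1.57 and 1.60 times with dBET1. The tRNA genes are 59 to 75 bases long, shorter than the reads of the study, so a count on one can come from a read that also covers its neighbours.

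**Figure D2:**
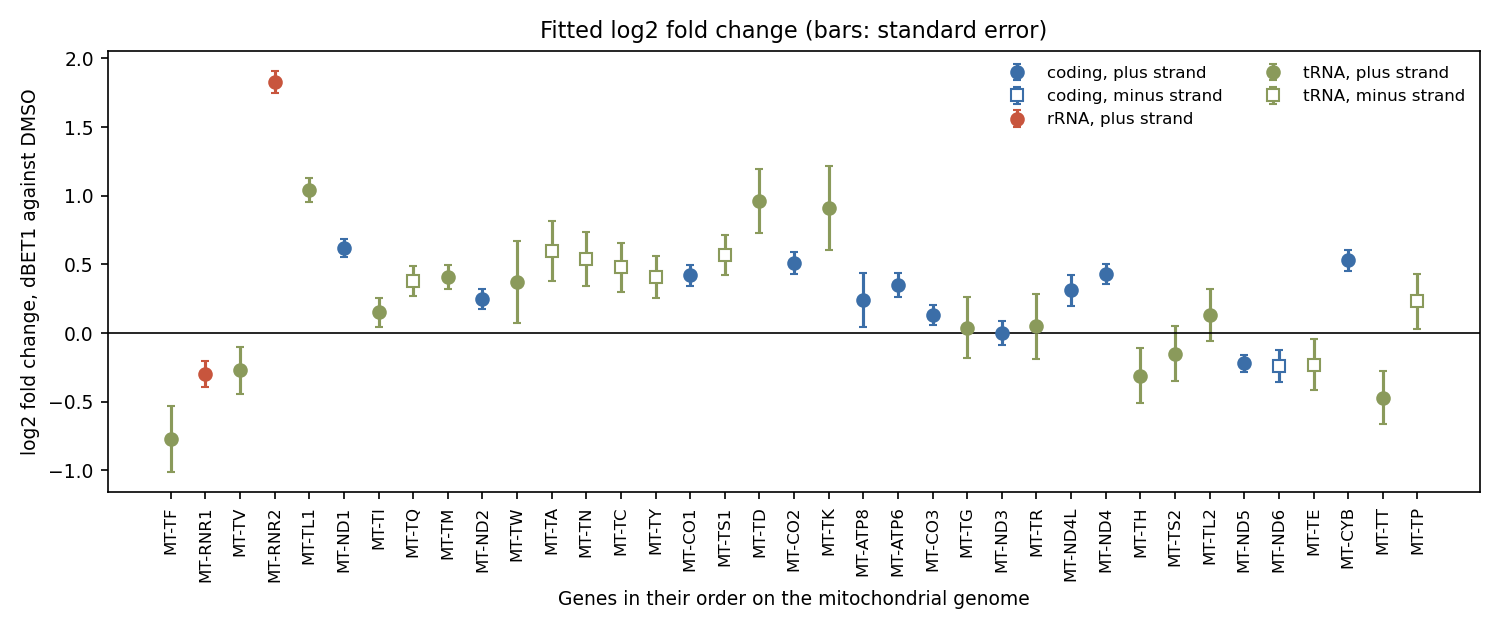
Fitted log2 fold change of dBET1 against DMSO (vertical axis, bars are the standard error) for the 37 genes in their order on the mitochondrial genome, coloured by class, with open squares for genes of the minus strand. MT-RNR2 stands highest at 1.83, MT-TL1 and MT-ND1 follow it at 1.04 and 0.62, and MT-TF, MT-RNR1 and MT-TV before it lie below 0.

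The coding genes were mostly a little higher after dBET1. Of the 13, 9 had both dBET1 libraries above both DMSO libraries, 1 had them below and 3 overlapped. Over all genes tested, 41.9% had them above and 37.4% below. The log2 fold changes of the coding genes ran from -0.24 to 0.62, with a median of 0.31. With total counts as the only scaling, the median was 0.52.

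Of the 7 coding genes of complex I, the NADH dehydrogenase that feeds electrons into the respiratory chain, MT-ND1 was the highest in log2 fold change at 0.62 (SE 0.068). It was at 2172 and 2228 CPM with DMSO and 3487 and 3264 CPM with dBET1. MT-ND4 (5762 and 6134 against 8429 and 7586 CPM), MT-ND4L (1292 and 1056 against 1560 and 1355 CPM) and MT-ND2 (4410 and 4841 against 5656 and 5344 CPM) also had separate groups, at log2 fold changes of 0.43, 0.31 and 0.25. MT-ND3 overlapped, at 1163 and 1284 CPM with DMSO and 1303 and 1142 CPM with dBET1.

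MT-ND5 (chrM:12337-14148) was the coding gene whose libraries were lower after dBET1. It had 2145 and 2151 CPM with DMSO and 1859 and 1836 CPM with dBET1, a log2 fold change of -0.22 (SE 0.063) that was -0.01 with total counts as the only scaling. Within a library, MT-ND5 per base was 0.283 and 0.267 times MT-ND4 with DMSO and 0.168 and 0.184 times with dBET1. Against MT-CYB, the next plus-strand coding gene, it was 0.558 and 0.596 times with DMSO and 0.33 and 0.358 times with dBET1. MT-ND5 was thus lower relative to the plus-strand coding genes on either side in both dBET1 libraries, whatever the scaling. MT-ND6, the one coding gene of the minus strand, directly follows MT-ND5 and was 0.626 and 0.770 times it per base with DMSO and 0.744 and 0.631 times with dBET1, so that this ratio overlapped. MT-ND6 itself also overlapped, at 389 and 480 CPM with DMSO and 401 and 336 CPM with dBET1. Whether its counts came from the minus strand alone is not known, as the strand setting of the counting is not given.

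MT-CYB, cytochrome b of complex III, was at 2419 and 2274 CPM with DMSO and 3553 and 3226 CPM with dBET1, a log2 fold change of 0.53 (SE 0.076). The 3 genes of complex IV, the cytochrome c oxidase that passes electrons to oxygen, all had separate groups. MT-CO1 was at 10491 and 11831 against 15273 and 14510 CPM (log2 fold change 0.42), and MT-CO2 at 4240 and 4755 against 6548 and 6232 CPM (0.51). MT-CO3 was at 6573 and 7379 against 7719 and 7573 CPM (0.13), a difference smaller than the gap between the DMSO libraries. Within a library, MT-CO3 per base was 1.23 times MT-CO1 under DMSO in both replicates, against 0.994 and 1.03 times under dBET1.

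The ATP synthase genes MT-ATP8 and MT-ATP6 overlap by 46 bases and share a transcript. MT-ATP6 was at 4202 and 4914 CPM with DMSO and 5939 and 5641 CPM with dBET1, a log2 fold change of 0.35 (SE 0.087). MT-ATP8 overlapped between groups, at 517 and 817 CPM with DMSO and 873 and 699 CPM with dBET1, and its log2 fold change of 0.24 ran from -0.08 to 0.57 with each library left out.

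Per base of gene, the order of levels barely moved at the top. MT-CO3 and MT-CO1 led in both groups, with means of 8898 and 7238 CPM per kilobase with DMSO and 9752 and 9657 with dBET1, where the gap between them was smaller than the spread of either gene. MT-RNR2 went from rank 12 (1569 CPM per kilobase) to rank 6 (5588). MT-TW was the lowest member in both groups, at 22.0 and 28.4 CPM per kilobase. As shares of the MT- counts, MT-CO1 held 21.1% and 22.1% with DMSO and 20.9% and 21.2% with dBET1, while MT-RNR2 held 5.22% and 4.30% with DMSO and 12.2% and 12.4% with dBET1. The coding genes together went from 92.2% and 93.6% of the MT- counts to 85.8% and 85.7%.

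**Figure D3:**
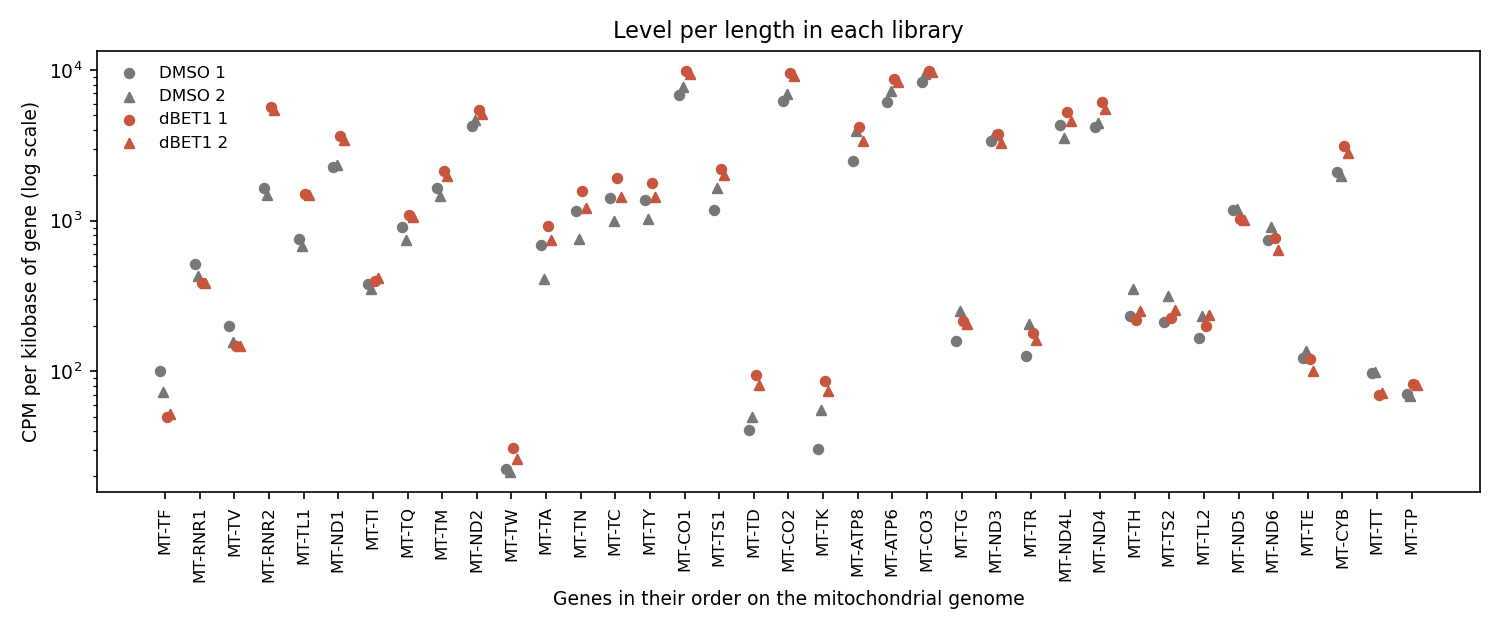
Level in each library as CPM per kilobase of gene (log scale, vertical axis) for the 37 genes in genome order, grey for DMSO and red for dBET1. The points span from 21.5 CPM per kilobase for MT-TW in DMSO replicate 2 to 9904 for MT-CO1 in dBET1 replicate 1, and MT-RNR2 is the gene at which the red points stand farthest above the grey ones.

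In 13 of the 22 tRNA genes both dBET1 libraries were above both DMSO libraries, in 4 below, and in 5 they overlapped. Over all genes tested, 41.9% had them above and 37.4% below. The median log2 fold change of the tRNA genes was 0.30. The 14 tRNA genes of the plus strand had a median of 0.09 and the 8 of the minus strand a median of 0.44. The strand setting of the counting is not given, so counts on a gene may include RNA of the opposite strand. A difference between the strands can therefore not be read from these medians. The minus-strand cluster MT-TA, MT-TN, MT-TC and MT-TY (tRNAs for alanine, asparagine, cysteine and tyrosine), between MT-ND2 and MT-CO1, had log2 fold changes from 0.41 to 0.60, but the DMSO libraries differed widely in it. MT-TA was at 47.3 and 28.5 CPM with DMSO and 64.0 and 51.0 CPM with dBET1, so that dBET1 replicate 2 was only just above DMSO replicate 1. MT-TS1, a minus-strand tRNA for serine, was at 81.8 and 114 CPM with DMSO and 152 and 139 CPM with dBET1.

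Among plus-strand tRNAs, MT-TM (methionine) was at 111 and 99.2 CPM with DMSO and 145 and 134 CPM with dBET1. MT-TD (aspartate) and MT-TK (lysine) had log2 fold changes of 0.96 and 0.91 at low counts, with 91 and 95 counts against 194 and 169 for MT-TD and 70 and 108 against 181 and 159 for MT-TK. MT-TF, the first gene after the promoters of the plus-strand transcript, was at 7.14 and 5.16 CPM with DMSO and 3.53 and 3.67 CPM with dBET1, a log2 fold change of -0.77 (SE 0.24). MT-TT, beside MT-CYB, was also lower, at 6.47 and 6.48 against 4.60 and 4.75 CPM. The libraries of MT-TH, MT-TS2, MT-TL2, MT-TG and MT-TR overlapped.

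Mature tRNAs, and mitochondrial rRNAs for the most part, are poorly kept by libraries that select poly(A) tails, as the kit named in the labels does. A list of nuclear genes whose RNAs typically lack such a tail, replication-dependent histones and small noncoding RNAs, was therefore counted beside them. Whether the counted RNAs of these genes lacked a tail was not tested. Of 94 such genes, 58 passed the count filter, of which 52 rose after dBET1 and 2 fell, but some passed only through the dBET1 libraries, where they are high, so nothing is read from that count. With at least 10 counts required in every sample, 39 rose and 2 fell, and of all genes 4320 rose and 4424 fell. How many of the 94 genes that setting tested is not given here, so no share is formed. In the main fit 28.0% of all genes tested rose and 27.6% fell. The summed level of the 94 genes was 1327 and 1440 CPM with DMSO and 2770 and 2731 CPM with dBET1. The histone genes H1-2 (log2 fold change 0.95), H2BC12 (0.24), H2AC6 (1.29) and H2AC11 (3.19) rose, while RN7SL2, an RNA of the signal recognition particle, fell from 144 ± 52.8 to 54.3 ± 5.96 CPM (log2 fold change -1.40, adjusted p = 0.00124). All 52 that rose were histone genes. Of the RNAs that are not histone RNAs, RN7SL1 also fell (log2 fold change -0.48, adjusted p = 0.0231), and RPPH1 did not pass (adjusted p = 0.777). In the same libraries and on the TMM scale, MT-RNR2 was higher and MT-RNR1 lower. The part of RNA selection in the rRNA values was not tested.

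Nuclear copies of mitochondrial DNA can share reads with the members. Of 390 such copies in the table, 75 had a count and 3 held 99.3% of their counts. MTATP6P1, on chromosome 1 (chr1:633696-634376), is 98.53% identical to MT-ATP6 with 10 mismatches, and it drew 25032 and 25926 counts under DMSO against 32362 and 31234 under dBET1. These were 18.3% and 18.8% of the MT-ATP6 counts with DMSO and 18.2% and 18.1% with dBET1, so the copy kept nearly a fixed proportion to the mitochondrial gene. MTND2P28, 98.18% identical to MT-ND2, stood at 11.3% ± 1.81 of its counts under DMSO and 11.7% ± 0.158 under dBET1 (SD, n = 2). MTCO1P12, 98.64% identical to MT-CO1, stood at 1.23% and 1.63% against 1.25% and 1.24%. MTND4P12 and MTND1P23, the next by level, were under 4 CPM in both groups. Counts of these copies and of their mitochondrial genes are uncertain for that reason, and with all copies added the share was 4.81% and 5.06% with DMSO and 8.02% and 7.58% with dBET1.

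The nuclear genes that express mitochondrial DNA were then examined in lists by role, which the choice of the MT- genes did not use, with p-values adjusted over all 17971 genes. Together, 84 genes for transcription, replication, RNA processing, RNA modification and translation were tested, of which 60 fell, 6 rose and the median log2 fold change was -0.59. Over all genes, 27.6% fell and 28.0% rose. The 1780 most abundant nuclear genes tested had a median of -0.42. With total counts as the only scaling, the list medians were -0.15 for transcription and 0.06 for replication. They were -0.74 for RNA processing and decay, -0.54 for RNA modification and -0.27 for translation.

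Of 8 transcription genes, 5 fell and 0 rose. TFB2M, which opens the promoter with the mitochondrial RNA polymerase, fell from 103 ± 4.11 to 45.3 ± 2.80 CPM (SD, n = 2; log2 fold change -1.18, adjusted p = 3.74e-05). TFAM, which bends and packs the DNA, fell by 0.48 on the log2 scale (adjusted p = 0.00145), and POLRMT, the polymerase itself, by 0.46 (adjusted p = 0.00599). TEFM, the elongation factor, fell by 0.41 (adjusted p = 0.0272), and MTERF2 fell by 0.25 (adjusted p = 0.0494). MTERF1, which binds inside MT-TL1, was at 12.1 and 8.58 CPM with DMSO and 10.4 and 12.3 CPM with dBET1 (adjusted p = 0.615). With total counts as the only scaling 2 of the 8 passed, and without either dBET1 library in turn 3 did.

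Replication genes were divided: of 14, 6 fell and 5 rose. SSBP1, the single-strand binding protein, fell from 99.0 ± 9.53 to 32.3 ± 4.38 CPM (log2 fold change -1.61, adjusted p = 3.64e-05), and the helicase TWNK from 76.8 ± 3.05 to 35.4 ± 0.509 CPM (-1.12, adjusted p = 4.3e-05). The 5 that rose, named after their values were seen, were PRIMPOL, a primase (0.92), RRM2B, a ribonucleotide reductase subunit (0.61), the nuclease MGME1 (0.51), the DNA polymerase POLG (0.36) and DNA2, a nuclease and helicase (0.26).

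RNA processing and decay had 18 of 22 genes lower and 1 higher, with a median of -0.95. SLIRP, which with LRPPRC holds and protects mitochondrial mRNAs, fell from 85.9 ± 11.9 to 22.2 ± 0.406 CPM (log2 fold change -1.95, adjusted p = 1.61e-05), and LRPPRC from 501 ± 50.2 to 370 ± 1.35 CPM (-0.44, adjusted p = 0.00315). The subunits of the enzyme that cuts tRNAs at their start, HSD17B10 (-1.65), PRORP (-1.09) and TRMT10C (-0.92), fell. PRORP was at -1.79 without dBET1 replicate 2 and at -0.63 without dBET1 replicate 1. The helicase SUPV3L1 (-1.24) and the nuclease PNPT1 (-1.20), which together degrade mitochondrial RNA, fell, as did the nuclease REXO2 (-1.13). GRSF1 (-1.12), TBRG4 (-1.04), FASTKD5 (-1.04) and FASTKD2 (-1.03), RNA-binding proteins of the mitochondrial RNA granule, fell too. ANGEL2, a phosphatase of RNA ends, rose from 22.6 ± 3.04 to 48.4 ± 0.791 CPM (1.09, adjusted p = 0.000186).

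RNA modification had 21 of 24 genes lower and 0 higher, with a median of -0.75. MRM1 (-1.24) and MRM3 (-1.12), methyltransferases of the large-subunit rRNA, fell, and TFB1M, which methylates the small-subunit rRNA, fell from 19.3 ± 0.876 to 10.2 ± 0.310 CPM (-0.92, adjusted p = 0.000955). The tRNA-modifying enzymes QTRT1 (-1.53), YRDC (-1.26), MTO1 (-1.07) and PUS1 (-1.05) fell as well. Of 16 translation factors, 10 fell and 0 rose, with C1QBP, a matrix protein bound to the ribosome (-1.69), the elongation factors TUFM (-1.50), GFM1 (-1.14) and TSFM (-1.08), and TACO1, an activator of MT-CO1 translation (-1.0), lowest. Of 7 tested nuclear regulators of mitochondrial genes, 5 fell, among them the coactivators PPARGC1B (-1.01) and PPRC1 (-0.98).

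The same complexes were then compared by the genome that encodes their subunits. Of 74 nuclear subunits of complexes I, III, IV and ATP synthase, 69 fell and 0 rose, with a median log2 fold change of -0.85, while the 13 mitochondrial subunits had a median of 0.31. The 1780 most abundant nuclear genes tested also had a median below 0, at -0.42, with 24.0% of them above 0. With total counts as the only scaling, the medians of the nuclear lists were -0.62, -0.73, -0.47 and -0.74 in this order, and the mitochondrial one 0.52.

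In complex I, 32 of 37 nuclear subunits fell, and the 11 past the fold limit ran from -1.66 for NDUFB10 to -1.26 for NDUFB8. NDUFA3 had the highest log2 fold change, 1.23 (SE 0.60, adjusted p = 0.115), at under 5 CPM in every library. In complex III all 9 fell, CYC1, cytochrome c1, from 482 ± 70.3 to 227 ± 7.12 CPM (-1.09, adjusted p = 0.000103) and the core protein UQCRC1 from 284 ± 19.7 to 145 ± 3.99 CPM (-0.96, adjusted p = 5.4e-05). In complex IV all 11 fell, COX7B (-1.04, adjusted p = 3.7e-05) and COX6B1 (-0.94, adjusted p = 5.62e-05) the most. In ATP synthase all 17 fell, 7 of them past the fold limit, with ATP5MC1, a subunit of the proton-carrying ring, lowest, from 92.4 ± 3.60 to 24.7 ± 1.07 CPM (-1.90, adjusted p = 9.55e-06). Complex II, which has no mitochondrial subunit, also had all 4 genes lower, SDHB (-0.91) and SDHD (-0.87) the most.

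**Figure D4:**
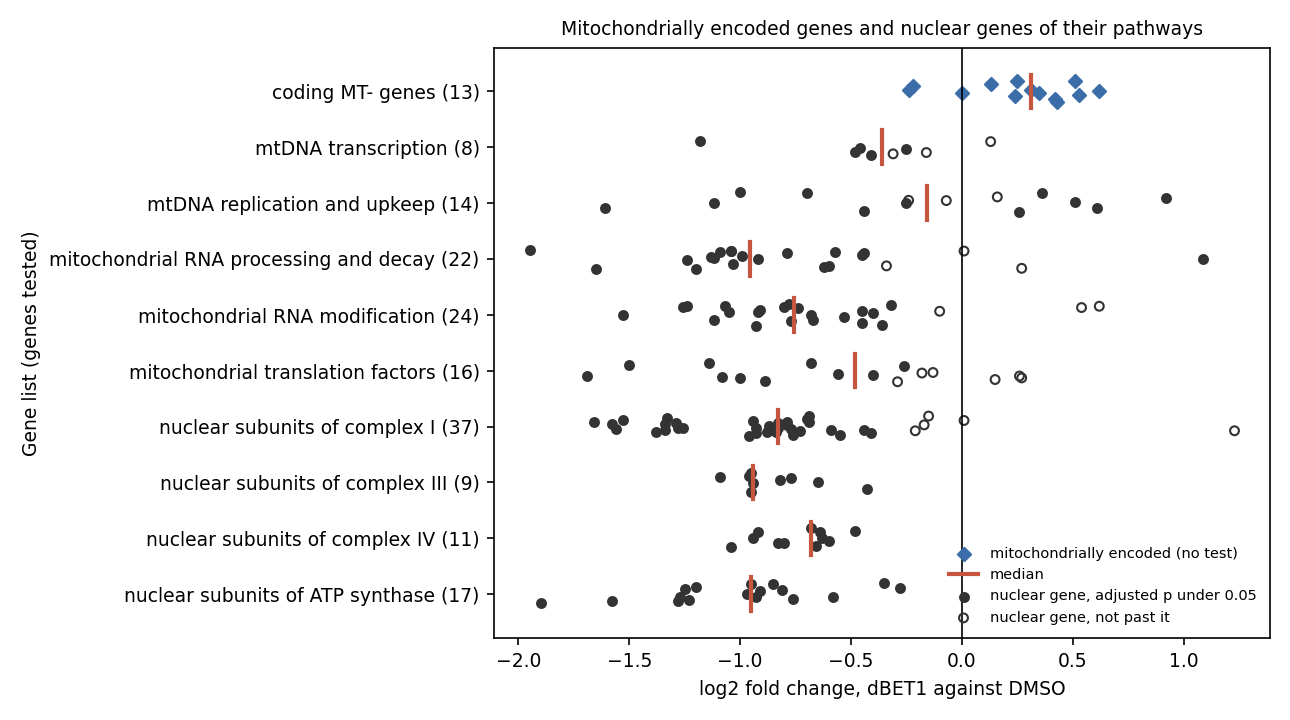
Fitted log2 fold change of dBET1 against DMSO (horizontal axis) for the 13 coding MT- genes (blue diamonds, no test) and for the nuclear genes of each list (circles, filled where the adjusted p was under 0.05), with the number of genes in brackets and the median as a red line. The mitochondrial median lies at 0.31, and the medians of the nuclear lists lie between -0.15 and -0.95.

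The summed level of the mitochondrial subunits relative to the nuclear ones was higher after dBET1 in each complex. In complex I the ratio of summed CPM was 4.48 and 4.09 with DMSO and 10.2 and 9.69 with dBET1. In complex III it was 1.17 and 0.962 against 2.83 and 2.67, and in complex IV 9.39 and 9.59 against 20.2 and 19.7. In ATP synthase it was 0.840 and 0.971 against 2.27 and 2.14. Both dBET1 libraries were above both DMSO libraries in all 4 complexes, by 2.1 to 2.58 times on the mean. Such a ratio does not depend on the scaling between libraries. The fall of the nuclear subunits contributed to it along with the higher counts of the members. In complex I the nuclear sums were 3865 and 4449 CPM with DMSO against 2223 and 2153 CPM with dBET1. The mitochondrial sums there were 17334 and 18174 against 22694 and 20864 CPM. In ATP synthase the nuclear sums were 5616 and 5905 against 3005 and 2963 CPM, and the mitochondrial ones 4718 and 5731 against 6812 and 6340 CPM. In both complexes the nuclear sums changed by the larger factor. The ratio compares transcripts and says nothing of the proteins.

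**Figure D5:**
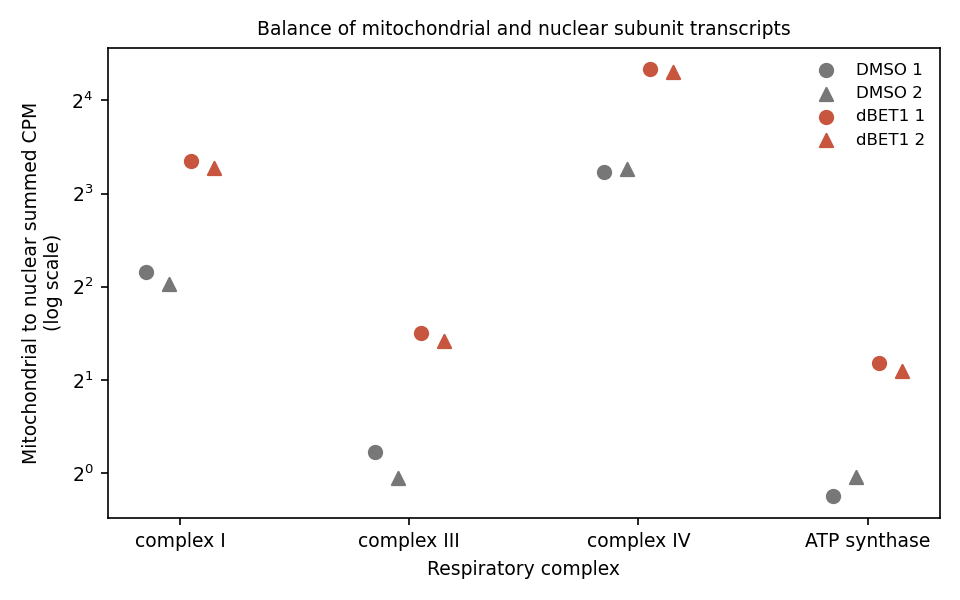
Ratio of the summed CPM of mitochondrially encoded to nuclear subunits (log scale, vertical axis) in each library for the 4 complexes that hold both, grey for DMSO and red for dBET1. In every complex both red points lie above both grey points, from 9.39 and 9.59 to 20.2 and 19.7 in complex IV for example.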

How the data were processed

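The authors extracted RNA (the labels name TRIzol and the Illumina TruSeq RNA kit, the methods of the paper another extraction kit), sequenced paired-end reads, aligned them to hg38 with HISAT2 (version 2.2.0 in the submitters' processing notes) and estimated abundances with StringTie. They deposited raw counts per gene, without normalization. The step from abundances to counts, its strand setting and its handling of reads with several matches are not given in the sources used here. The columns named NC were taken as DMSO, the only other 24 h group in the labels. There were 0 columns of other samples and 0 rows that named no gene.

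GENCODE release 44 gave symbols and hg38 coordinates for 56105 of the 64252 identifiers (the others held 2.57% of the counts). In edgeR 4.0.16 with limma 3.58.1 (R 4.3.3), genes were filtered with filterByExpr, scaled with TMM factors (0.918 to 1.08) and compared by group with the quasi-likelihood test, and p-values were adjusted by Benjamini-Hochberg over 17971 genes. The paper's methods used DESeq2, here an alternative (version 1.42.0). CPM is counts per 1000000 of the TMM-scaled library size. The SE was taken from F, as the absolute log2 fold change over its square root. The pairs differed beyond sampling noise (chi-square per degree of freedom 23.6 and 8.14), so each library counts as 1. Wilson intervals used Python 3.11.15 and scipy 1.17.1, and identities to nuclear copies came from global alignment with Biopython 1.88. The fit was tested on simulated data in which only a small part of the genes changed. Far more genes differed in these libraries, so the simulation does not cover the scaling between them.

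Named nuclear genes are those past adjusted p 0.05 and an absolute log2 fold change above 1 in each list, or the 2 with the smallest p where fewer passed. For nuclear copies and for the list of RNAs typically without a poly(A) tail they are the 5 highest in mean CPM. POLRMT, TFAM, TFB1M, TFB2M, TEFM, MTERF1, LRPPRC, SLIRP and MYC were also named. Of the 11 genes past both limits in complex I only the outermost were named, and of the 7 in ATP synthase only the lowest. The rule also names an item not reported here. Others (MTERF2, TRMT10C, NDUFA3, RN7SL1, RPPH1 and the replication genes that rose) were named after their values were seen. The members, lists and markers were chosen with earlier results of these data known. Groups of 2 were too small for a check of single outlying libraries.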

Additional observations from a re-analysis of the deposited data

How the results depend on the processing

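The log2 ratio of the mitochondrial share, 0.67, was 0.56 with the rRNA genes left out, and that of the MT-CO1 share of MT- counts, -0.04, was 0.08. With total counts only, the median of the coding genes was 0.52 in place of 0.31, the rRNA sum 1.86 in place of 1.65, and 2 of the transcription genes changed in place of 5. At least 10 counts in every sample gave 3 of those, and no count filter gave 0 nuclear copies in place of 2. With each library left out, the coding median ran from 0.20 (without dBET1 replicate 1) to 0.43 (without DMSO replicate 2), the changed transcription genes from 3 (without either dBET1 library) to 6, the replication genes from 7 (without dBET1 replicate 1) to 13 in place of 11, and the nuclear copies from 0 (without either dBET1 library) to 3. The causes were not tested. The other lists stayed within 1.5 times their counts under all settings run. Of 444 alternative values of single members, 411 moved by less than the spread between replicates (the SDs of both groups combined), 33 moved more, and 0 changed the direction of a called member. With no count filter, 9 members were higher and 1 lower, and all genes higher and lower were 3459 and 4350.

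With the replicate number as a replicate block, the coding median was 0.32 and the rRNA sum 1.65. In that fit 19 members were higher and 3 lower, and all genes higher and lower were 4976 and 4897. The labels do not say whether same-numbered libraries form pairs. Deviations of same-numbered libraries correlated at -0.00753 across genes, with 2 pairs. That value shows no shared deviation, but it cannot tell whether the libraries were prepared as pairs. With 2 libraries per group each spread rests on 2 values, while depth limited only the rarest tRNAs, such as MT-TW at 41 to 63 counts.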
